A study of Rattus norvegicus with 6 samples.

Results

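The 10 nuclear genes described here encode proteins that copy or transcribe mitochondrial DNA or, for Tfb1m, chiefly modify its ribosomal RNA. Most of their transcripts were more abundant in aged than in young rat bone marrow mesenchymal stem cells. The genes were chosen by name (Tfam, Polg, Polg2, Twnk, Ssbp1, Polrmt, Tfb1m, Tfb2m, Mgme1 and Top1mt), with earlier results of these data known. They are 10 of the 21026 gene symbols in the count table. The largest rises were in Mgme1, the exonuclease that trims mitochondrial DNA ends, and Tfb1m, a ribosomal RNA methyltransferase. Ssbp1, the single-strand binding protein, did not differ beyond the spread between libraries, and Top1mt, the mitochondrial topoisomerase, was lower in aged cells. Both of these results changed when the libraries were scaled by their size alone. Bone marrow mesenchymal stem cells grow attached to plastic in culture and can mature into bone, cartilage or fat cells. The study sequenced polyadenylated RNA from 3 libraries labelled aged and 3 labelled young, from Rattus norvegicus. The labels call the 3 libraries of each group biological replicates. They name no strain, sex, age in months, passage or treatment beyond the age class, and give no number of animals behind the libraries. Each p-value is thus set against the spread between libraries of a group, which need not be the spread between animals.

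Mammalian mitochondrial DNA is a small circle copied by its own machinery, apart from the nuclear genome. The polymerase gamma holoenzyme, built from Polg and Polg2, follows the Twnk helicase while Ssbp1 coats the exposed strand. Transcription is started by Polrmt together with Tfam and Tfb2m, and short transcripts of Polrmt also prime replication, so the machineries are linked. Tfam in addition coats and compacts the DNA into nucleoids.

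Total counts ran from 34638874 to 38921547 in the aged libraries and from 40180480 to 42479626 in the young ones. Counts were scaled to CPM, counts relative to a common library total, with TMM factors, and changes are given as log2 of aged over young with a standard error (SE). The TMM factors were 1.121 to 1.127 in aged and 0.8879 to 0.8926 in young libraries. Young replicate 2 stood apart from the other young libraries. The chi-square per degree of freedom between replicates was 3.11 to 3.58 for the aged pairs, 10.6 and 8.67 for the young pairs that include it, and 3.52 for the other young pair, where sampling noise alone gives about 1. The 11 stromal markers listed summed to 20800 to 21000 CPM in aged and 41100 to 41600 CPM in young libraries. Most of this was collagen, with Col1a1 at 10900 CPM in aged and 19600 CPM in young cells, and Col1a2 at 6370 and 11600 CPM. Of the 11, 7 were called lower, 2 higher and 2 neither way (edgeR adjusted p under 0.05). Over all tested genes 41.8% were called lower and 44.7% higher. The 2 higher were Lepr, a marker of marrow stroma, and Nt5e, at 47.3 ± 0.561 CPM in aged and 10.5 ± 0.347 CPM in young cells. Lepr was near 0, at 0.544 ± 0.166 CPM in aged and 0.12 ± 0.139 CPM in young cells. It passed the filter on low counts through its aged libraries, so its call as higher is not read as a result. Cxcl12, a stromal chemokine, had the largest fall of these markers, with 203 ± 1.44 CPM in aged and 3390 ± 165 CPM in young cells. Of 10 blood and macrophage markers listed, 8 were counted and 3 passed the filter on low counts, with sums over the 8 of 43.1 to 44.1 CPM in aged and 83.8 to 84.3 CPM in young libraries. The leukocyte marker Ptprc averaged 0.00854 ± 0.0148 CPM in aged libraries and was at 0 in young ones, whereas Cd14 had 21 ± 0.6 CPM in aged and 80.7 ± 0.772 CPM in young cells, and Csf1r had 21.8 ± 0.552 CPM in aged and 0.321 ± 0.182 CPM in young cells (SD, n = 3 each). Csf1r, with 8, 8 and 19 counts in young libraries, also passed the filter through its aged ones, and its call is not read as a result. The 5 endothelial markers summed to at most 0.678 CPM in aged and 0.471 CPM in young libraries. Cdh5 was at 0 in aged ones. Tek alone passed the filter, through the aged libraries, with 15, 25 and 10 counts there and 2, 1 and 0 in young ones. It had 0.398 ± 0.161 CPM in aged and 0.0273 ± 0.0277 CPM in young cells. Since the filter kept Tek for its aged counts, its call as higher is not read as a result. The part of these marker differences in the results below was not tested, and in bulk RNA a change in the share of cells and a change in RNA per cell cannot be told apart.

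In human cells several of these genes, TFAM among them, are known targets of the nuclear respiratory factors NRF1 and GABP, so the rat promoters were searched for the letters those factors read. All members but Top1mt matched the RefSeq promoter table of assembly GRCr8 by symbol. Each promoter of the table holds 250 bases before and 50 after the annotated start. The GABP core letters CCGGAAG, sought on both strands, were found in 5 of 9 member promoters (Polg, Polrmt, Ssbp1, Tfam and Twnk), and in 8.75% of the 33469 promoters of the same length. No GABP match overlapped a match of another string sought. The windows below run from 150 bases before to 20 after the start, on the strand of the gene, with each GABP match in capitals, written CTTCCGG where it lies on the opposite strand. The 5 with a match are shown, and Mgme1, the gene with the largest rise, which holds none. They lie at chr1:253817414-253817583 on the plus strand for Twnk, chr1:142808819-142808988 on the minus strand for Polg and chr7:10610046-10610215 on the plus strand for Polrmt. The others lie on the plus strand, at chr20:17355223-17355392 for Tfam, chr4:70232620-70232789 for Ssbp1 and chr3:152094503-152094672 for Mgme1.
Twnk: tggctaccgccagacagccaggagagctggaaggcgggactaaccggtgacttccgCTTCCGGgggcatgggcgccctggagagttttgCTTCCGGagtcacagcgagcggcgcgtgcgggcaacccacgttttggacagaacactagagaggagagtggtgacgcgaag
Polg: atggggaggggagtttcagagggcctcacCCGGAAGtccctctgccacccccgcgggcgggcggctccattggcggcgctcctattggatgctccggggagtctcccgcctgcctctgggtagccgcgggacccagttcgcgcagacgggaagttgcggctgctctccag
Polrmt: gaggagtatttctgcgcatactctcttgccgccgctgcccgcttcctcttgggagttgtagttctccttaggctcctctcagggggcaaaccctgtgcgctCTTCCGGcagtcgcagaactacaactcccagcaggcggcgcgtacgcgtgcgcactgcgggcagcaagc
Tfam: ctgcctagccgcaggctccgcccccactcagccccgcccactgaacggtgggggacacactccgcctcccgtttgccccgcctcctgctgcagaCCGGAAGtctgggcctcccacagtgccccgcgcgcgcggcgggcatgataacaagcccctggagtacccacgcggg
Ssbp1: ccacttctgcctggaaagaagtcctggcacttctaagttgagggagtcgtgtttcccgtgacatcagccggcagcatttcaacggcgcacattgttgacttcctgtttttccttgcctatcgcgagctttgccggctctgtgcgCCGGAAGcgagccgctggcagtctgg
Mgme1: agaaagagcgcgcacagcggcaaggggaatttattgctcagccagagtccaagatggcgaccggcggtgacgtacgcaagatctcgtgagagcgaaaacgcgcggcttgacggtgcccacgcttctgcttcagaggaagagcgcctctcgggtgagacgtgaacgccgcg
In Twnk the matches began 94 and 61 bases before the start, in Polg 121, in Tfam 56, in Polrmt 49 and in Ssbp1 6. The long NRF1 consensus (GCGC, any base, then TGCGC) was found in 0 of the 9 and in 4.25% of all promoters. The shorter NRF1 strings TGCGCA, which is not contained in that consensus, and GCATGCGC were also sought. They were found in 2 (Polrmt and Tfb2m) and in Tfb2m alone, and in 7.24% and 2.47% of all. The SP1 letters GGGCGG were found in 4 (Polg, Tfam, Tfb2m and Twnk) and 33.1% of all, with overlapping matches in Polg. The YY1 letters AAGATGGC were found in Mgme1 alone and in 3.17% of all, and the E-box CACGTG in Tfb2m alone and in 6.42% of all. The CREB letters TGACGTCA and the ATF4 letters TGATGNAA were in 0 of the 9, and in 1.83% and 3.98% of all promoters. The 33469 promoters were not limited to the genes tested here and were not matched to the members for their share of G and C bases. A match describes the letters only and is not evidence of binding.

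All 10 genes passed the filter on low counts and were tested. Of them 8 rose, 1 fell and 1 was not called in aged cells. Calls were made by the edgeR quasi-likelihood F test at an adjusted p under 0.05, with Benjamini-Hochberg adjustment over all 14273 genes tested. The background for this count is wide, because 86.4% of all tested genes were called, 44.7% as higher and 41.8% as lower in aged cells. The members' share of calls, 90%, is therefore near the background. The share that rose can be set beside 44.7%. Their median log2 change was 0.80, against 0.05 over all tested genes. Against a minimum of 1.5-fold (edgeR glmTreat), 6 of the 10 rose and 0 fell, where 33.2% of all tested genes rose, 28.2% fell and 61.4% were called in either direction. In 8 of the 10 the CPM of the groups did not overlap, as in 87.5% of all tested genes. Scaling by library size alone shifted the log2 changes upward, by 0.34 at the median. Under it 9 members rose and 0 fell, where 54% of all genes were called higher. The sum over the 10 genes was 266 ± 6.34 CPM in aged and 156 ± 5.49 CPM in young cells (SD, n = 3 each), a ratio of 1.7.

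**Figure D1:**
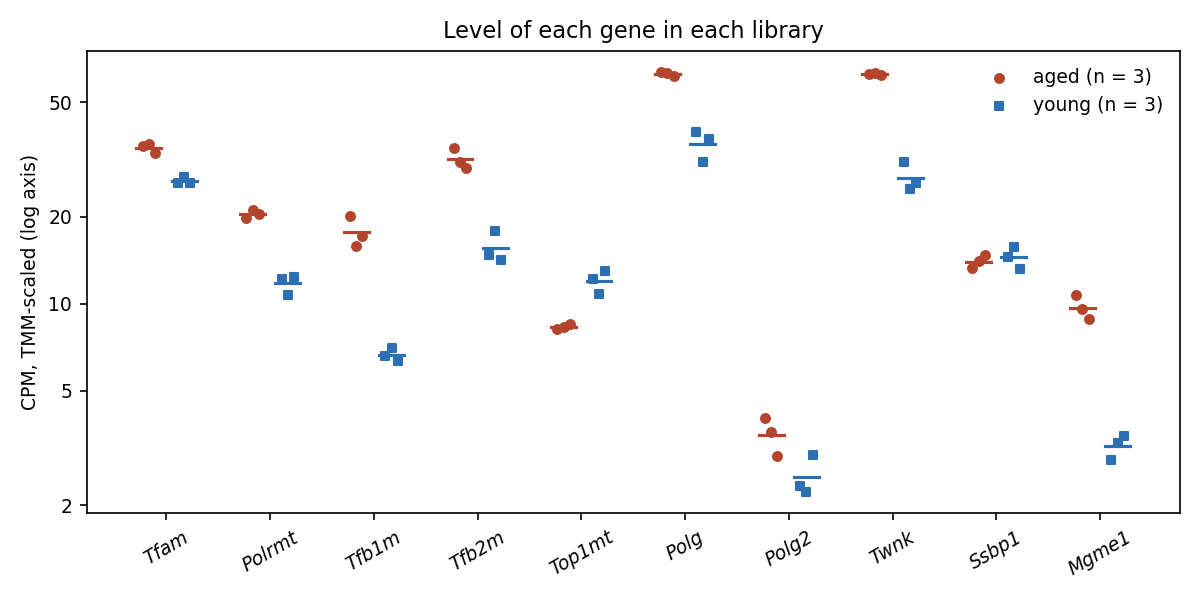
CPM of each gene (log axis) in the 3 aged libraries (circles) and the 3 young libraries (squares), with the group mean as a bar. Genes grouped with transcription, Tfb1m among them, are on the left and replication genes on the right. Aged libraries lie above young ones for 7 genes and below them for Top1mt, and the groups overlap for Polg2 and Ssbp1.

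Among the factors that start transcription, Tfam changed least. Tfam, which packages the DNA and bends it at the promoters, had 35.2, 35.8 and 33.2 CPM in aged libraries, against 26.3, 27.5 and 26.3 CPM in young ones. The aged values lay close together above the young ones, a log2 change of 0.38 (SE 0.06, edgeR adjusted p = 2.6e-05). This is under the 1.5-fold minimum, and 58.1% of all tested genes had a lower change. Polrmt, the single-subunit RNA polymerase of mitochondria, had 19.9, 21.1 and 20.4 CPM in aged libraries, against 12.2, 10.7 and 12.4 CPM in young ones. It rose 1.74-fold, with a log2 change of 0.80 (SE 0.08, edgeR adjusted p = 1.0e-07) and no overlap of the groups. Tfb2m, which melts the promoter DNA for Polrmt, had 34.6, 31 and 29.6 CPM in aged libraries, against 14.7, 17.9 and 14.2 CPM in young ones. It rose 2.03-fold (log2 1.02, SE 0.09, edgeR adjusted p = 9.4e-09), and young replicate 2 was the highest of the young libraries.

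Tfb1m and Top1mt stood at opposite ends of the genes grouped here with transcription. Tfb1m is related to Tfb2m, but it is known chiefly as the methyltransferase that modifies the small ribosomal RNA of mitochondria. It had 20.1, 15.8 and 17.2 CPM in aged libraries, against 6.59, 7.02 and 6.33 CPM in young ones. The change was 2.66-fold (log2 1.41, SE 0.11, edgeR adjusted p = 1.1e-09), with aged replicate 1 the highest. Top1mt, which releases the supercoils that transcription and replication leave in the circle, had 8.16, 8.32 and 8.51 CPM in aged libraries, against 12.2, 10.8 and 13 CPM in young ones. It fell by 0.52 on the log2 scale (SE 0.10, edgeR adjusted p = 1.5e-04), and every aged library lay below every young one. With scaling by library size alone its log2 change was -0.19 and the call was lost (edgeR adjusted p = 0.096).

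In the replication machinery the catalytic subunit and the helicase rose clearly. Polg, the catalytic subunit of the polymerase, had 63.7, 63 and 61.6 CPM in aged libraries, against 39.4, 30.9 and 37.2 CPM in young ones. It rose 1.75-fold (log2 0.81, SE 0.07, edgeR adjusted p = 8.9e-09). Twnk, the helicase that unwinds the circle ahead of the polymerase, had 62.5, 63.2 and 62.3 CPM in aged libraries, against 30.9, 25 and 26.2 CPM in young ones. It rose 2.29-fold (log2 1.20, SE 0.07, edgeR adjusted p = 2.3e-11), the smallest p of the 10 genes. In both genes the aged libraries lay close together and the young ones were spread, with young replicate 2 the lowest.

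The smaller partners did not move alike. Mgme1, which cuts the single-stranded flaps left at the ends of new strands, had 10.7, 9.56 and 8.82 CPM in aged libraries, against 2.88, 3.3 and 3.47 CPM in young ones. This was the largest rise, 3.02-fold (log2 1.59, SE 0.13, edgeR adjusted p = 4.7e-09), and 78.9% of all tested genes had a lower change. Polg2, the accessory subunit that keeps the polymerase on its template, had 4.02, 3.58 and 2.97 CPM in aged libraries, against 2.33, 2.22 and 2.99 CPM in young ones. Aged replicate 3 lay within the young range, and the rise of 1.4-fold was called near the threshold (log2 0.49, SE 0.20, edgeR adjusted p = 0.028). It rests on 116 to 166 counts per aged library and 84 to 107 per young library. The call was lost without aged replicate 1 (edgeR adjusted p = 0.12), aged replicate 2 (edgeR adjusted p = 0.068), young replicate 1 (edgeR adjusted p = 0.083) or young replicate 2 (edgeR adjusted p = 0.078). Ssbp1 had 13.3, 14.1 and 14.7 CPM in aged libraries, against 14.5, 15.7 and 13.2 CPM in young ones. The groups overlapped, with a log2 change of -0.05 (SE 0.09, edgeR adjusted p = 0.64). With scaling by library size alone Ssbp1 was called higher, at 0.29 on the log2 scale (edgeR adjusted p = 0.0068).

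**Figure D2:**
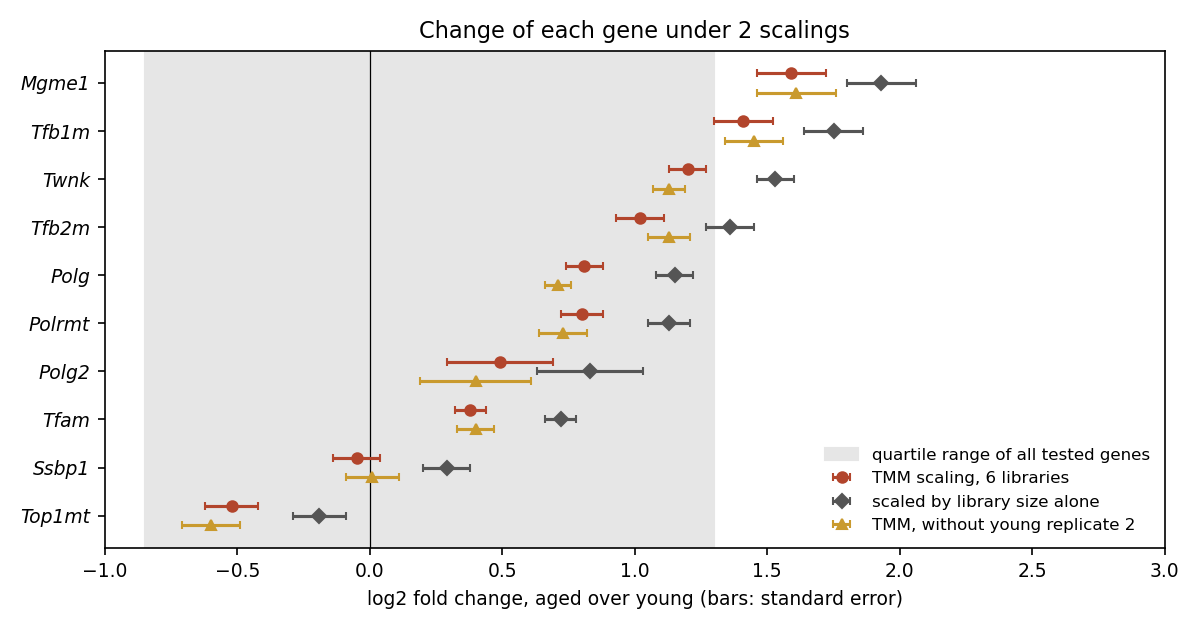
Log2 fold change of each gene, aged over young, with its standard error, from TMM scaling with all 6 libraries (circles), scaling by library size alone (diamonds) and TMM without young replicate 2 (triangles); the grey band spans the quartiles of all tested genes with TMM scaling. Library-size scaling keeps the order and moves every gene to the right, taking Ssbp1 to 0.29 and Top1mt to -0.19.

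Ordered by change, Mgme1 and Tfb1m were followed by Twnk, Tfb2m, Polg, Polrmt, Polg2, Tfam, Ssbp1 and Top1mt. Polg and Polrmt differed by less than their standard errors, at 0.81 and 0.80 on the log2 scale, and Mgme1 and Tfb1m lay within their summed standard errors. With TMM scaling, Mgme1 and Tfb1m alone lay above the upper quartile of all tested genes, which was 1.30 on the log2 scale. The members with the GABP letters printed above covered changes from -0.05 (Ssbp1) to 1.20 (Twnk), and the 4 searched members without them from 0.49 (Polg2) to 1.59 (Mgme1). Without young replicate 2 the log2 changes were 0.71 for Polg, 1.13 for Twnk, 0.73 for Polrmt, 1.13 for Tfb2m, 1.45 for Tfb1m, 1.61 for Mgme1, 0.40 for Tfam and -0.60 for Top1mt, all still called. Ssbp1 then stood at 0.01 (edgeR adjusted p = 0.91). For Tfam, the genes with the most similar profile over the 6 libraries (Euclidean distance of centred log2 CPM) were Marchf5, Pkp4 and Ankrd13b, at distances of 0.0488, 0.0589 and 0.0598. With 2 groups such a likeness mostly restates a similar fold, and Marchf5 rose 1.31-fold.

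The unequal changes were examined as ratios of raw counts within a library, which do not depend on scaling. Transcript length was not used, so the level of a ratio cannot be read, only its change between the groups. An effect of transcript length or RNA quality that differed between the groups would not cancel in a ratio or in a fold change. Such an effect was not tested. With 3 libraries against 3 the exact two-sided permutation test cannot go below p = 0.1, or 0.125 after Benjamini-Hochberg adjustment over the 10 ratios computed, so none can pass 0.05. Top1mt over Polrmt was 0.41, 0.395 and 0.418 in aged libraries, against 1, 1 and 1.05 in young ones, the widest gap (difference of -1.32 on the log2 scale, exact p = 0.1, adjusted 0.125). Ssbp1 over Polg was 0.208, 0.224 and 0.238 in aged libraries, against 0.368, 0.507 and 0.356 in young ones, so each aged library held fewer Ssbp1 counts per Polg count than any young one. Mgme1 over Polg was 0.168, 0.152 and 0.143 in aged libraries, against 0.0732, 0.107 and 0.0934 in young ones.

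Twnk over Polg was 0.981, 1 and 1.01 in aged libraries, against 0.785, 0.807 and 0.705 in young ones. The helicase transcript therefore gained on the polymerase transcript, by 0.38 on the log2 scale. Tfam over Polrmt was 1.77, 1.7 and 1.63 in aged libraries, against 2.17, 2.56 and 2.11 in young ones, a difference of -0.42. Tfam over Polg moved by -0.44, with no overlap of the groups. Tfb1m over Tfb2m was 0.581, 0.508 and 0.58 in aged libraries, against 0.45, 0.391 and 0.447 in young ones. All of these had the smallest p the design allows. The groups overlapped for Polg2 over Polg (difference of -0.33, exact p = 0.2, adjusted 0.222) and for Tfb2m over Polrmt (0.23, exact p = 0.3, adjusted 0.3).

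**Figure D3:**
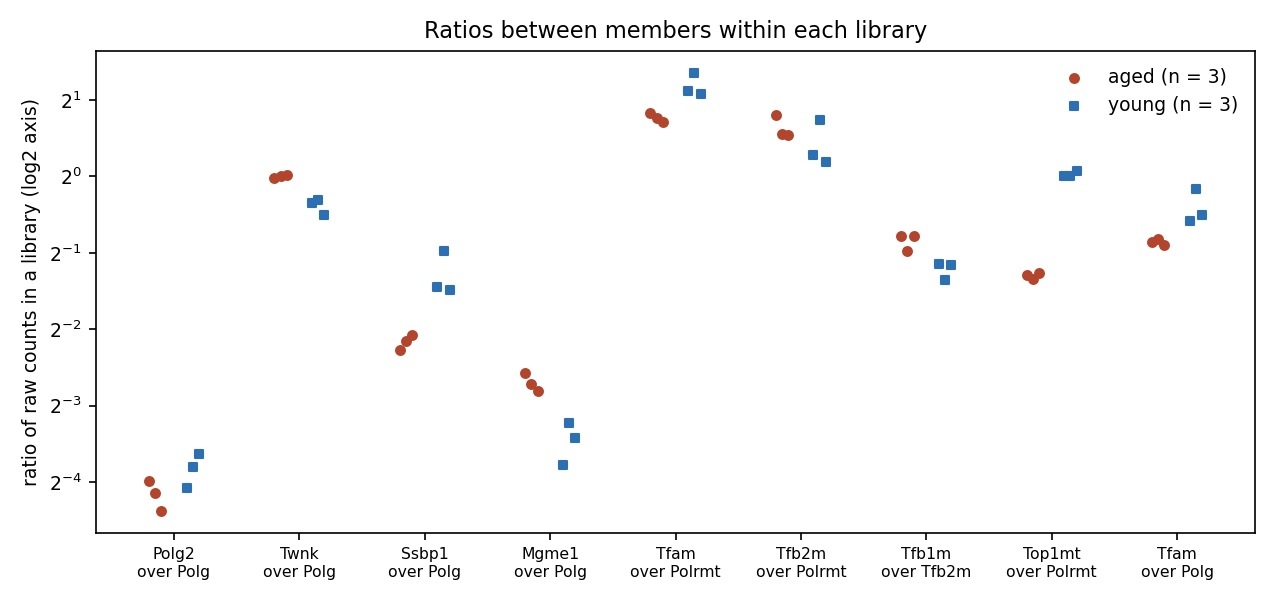
Ratio of raw counts between 2 members in each library (log2 axis), for the 3 aged (circles) and 3 young (squares) libraries. The groups are apart for 7 of the 9 ratios drawn and overlap for Polg2 over Polg and Tfb2m over Polrmt.

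The counting could mix some members with their neighbours, since the strand setting is not given in the sources used here. In the GRCr8 annotation, which may differ from the one the authors used, Twnk overlaps Mrpl43, a mitochondrial ribosomal protein gene. Mrpl43 had 29.9 ± 1.35 CPM in aged and 71.5 ± 4.69 CPM in young cells (SD, n = 3 each), the opposite direction to Twnk. Polg overlaps Fanci, a gene of the Fanconi anaemia DNA repair pathway, which had 2.82 ± 0.398 CPM in aged and 33.1 ± 1.87 CPM in young cells and so also moved against Polg. Tfb1m overlaps Tiam2, a Rac exchange factor gene, which had 38.3 ± 1.25 CPM in aged and 24.7 ± 1.67 CPM in young cells. Tiam2 moved the same way as Tfb1m by a smaller fold of 1.55. The part of shared reads in the 3 changes was not tested.

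The steps after initiation also moved, and mostly upward. The lists here and below were chosen with earlier results of these data known, so their counts and medians only describe the listed genes. Of 5 elongation and termination factor genes, 4 could be tested and all 4 rose, where 44.7% of all tested genes were called higher, and their median log2 change was 1.59 against 0.05 for all tested genes. Mterf1, which binds the DNA downstream of the ribosomal RNA genes, had 11.7 ± 0.274 CPM in aged and 2.47 ± 0.142 CPM in young cells, a 4.71-fold rise. Mterf3, a relative needed for mitochondrial ribosome assembly, rose 4.7-fold. Tefm, which keeps Polrmt on its template, rose 1.94-fold.

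Among 22 genes of mitochondrial RNA processing and decay, 16 rose and 5 fell (18 and 3 with library-size scaling), with a median log2 change of 1.11. Over all tested genes 44.7% were called higher and 41.8% lower with TMM, and 54% higher and 32.6% lower with library-size scaling. Fastkd2, an RNA-binding protein of mitochondrial RNA granules, had the largest rise, to 16.4 ± 0.865 CPM in aged cells against 1.78 ± 0.605 CPM in young cells. Ptcd3, a mitochondrial ribosome-associated pentatricopeptide protein, rose 4.24-fold and had the list's smallest p. The subunits of mitochondrial RNase P, the enzyme that cuts the 5′ ends of tRNAs out of the long primary transcripts, were divided. Prorp, its nuclease, rose 5.44-fold and Trmt10c, its methyltransferase, rose 2.26-fold, whereas Hsd17b10, its dehydrogenase subunit, had 25.7 ± 0.372 CPM in aged and 58.6 ± 3.14 CPM in young cells and fell by 1.19 on the log2 scale. The partners Lrpprc and Slirp, which stabilise mitochondrial messenger RNA together, also parted. Lrpprc had 62.4 ± 2.36 CPM in aged and 18.1 ± 2.82 CPM in young cells, and Slirp had 17.2 ± 0.815 CPM in aged and 27.5 ± 0.494 CPM in young cells (SD, n = 3 each).

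Of 18 other genes of mitochondrial DNA replication, repair and nucleoids, 6 rose, 8 fell and 4 were not called, and with library-size scaling 10 rose and 3 fell. Over all tested genes 44.7% were higher and 41.8% lower with TMM, and 54% and 32.6% with library-size scaling. With 18 genes these counts are not read as a difference from those shares. Atad3a, a membrane ATPase associated with nucleoids, rose 1.8-fold with the smallest p. Primpol, a primase that restarts stalled forks, rose 2.68-fold from a low level, with 1.49 ± 0.0812 CPM in aged and 0.556 ± 0.171 CPM in young cells. Fen1, a flap nuclease that also serves nuclear replication, had 15.3 ± 1.29 CPM in aged and 30.8 ± 3.54 CPM in young cells. It fell by 1.01 on the log2 scale, the largest fall of the list.

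Of 11 genes listed for the supply or breakdown of nucleotides for the organelle, 6 were higher and 5 lower (6 and 3 with library-size scaling). This split was like that of all tested genes (44.7% higher and 41.8% lower, or 54% and 32.6% with library-size scaling). The 6 include Samhd1 and Tymp, whose enzymes break down nucleotides or their precursors, with log2 changes of 2.05 and 0.48. Slc25a36, a pyrimidine nucleotide carrier of the inner membrane, had 171 ± 9.04 CPM in aged and 21.4 ± 1.71 CPM in young cells, a 7.98-fold rise. Rrm1, the large subunit of ribonucleotide reductase, had 32 ± 0.522 CPM in aged and 91.8 ± 5.18 CPM in young cells. Rrm2b, the subunit that serves resting cells, rose 1.8-fold. Sucla2, a subunit of succinyl-CoA ligase whose loss depletes mitochondrial DNA in patients, rose 2.92-fold, while its partner Suclg1 fell by 0.75 on the log2 scale.

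Of 10 nuclear regulators of mitochondrial biogenesis listed, 8 could be tested, 6 rose and 2 fell (7 and 1 with library-size scaling). Of all tested genes, 86.4% were called and 44.7% were higher, or 54% higher with library-size scaling. Gabpa, the DNA-binding subunit of GABP, had 58.3 ± 1.92 CPM in aged and 10.8 ± 1.23 CPM in young cells, a 5.38-fold rise (edgeR adjusted p = 4.3e-15), and 87.1% of all tested genes had a lower change. Its partners Gabpb1 and Gabpb2 rose 1.79-fold and 2.25-fold, and Nrf1 rose 1.35-fold. Esrra, the estrogen-related receptor alpha, had 53.4 ± 0.845 CPM in aged and 104 ± 7.26 CPM in young cells and fell by 0.96 on the log2 scale. The coactivator genes Ppargc1a and Ppargc1b were too low to test, at 0.0157 ± 0.0136 and 0.0561 ± 0.0367 CPM in aged cells and 0.0898 ± 0.0654 and 0.0366 ± 0.0163 CPM in young cells. The related coactivator gene Pprc1 had 46.1 ± 2.26 CPM in aged and 39.5 ± 2.68 CPM in young cells (log2 0.22, edgeR adjusted p = 0.0035).

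**Figure D4:**
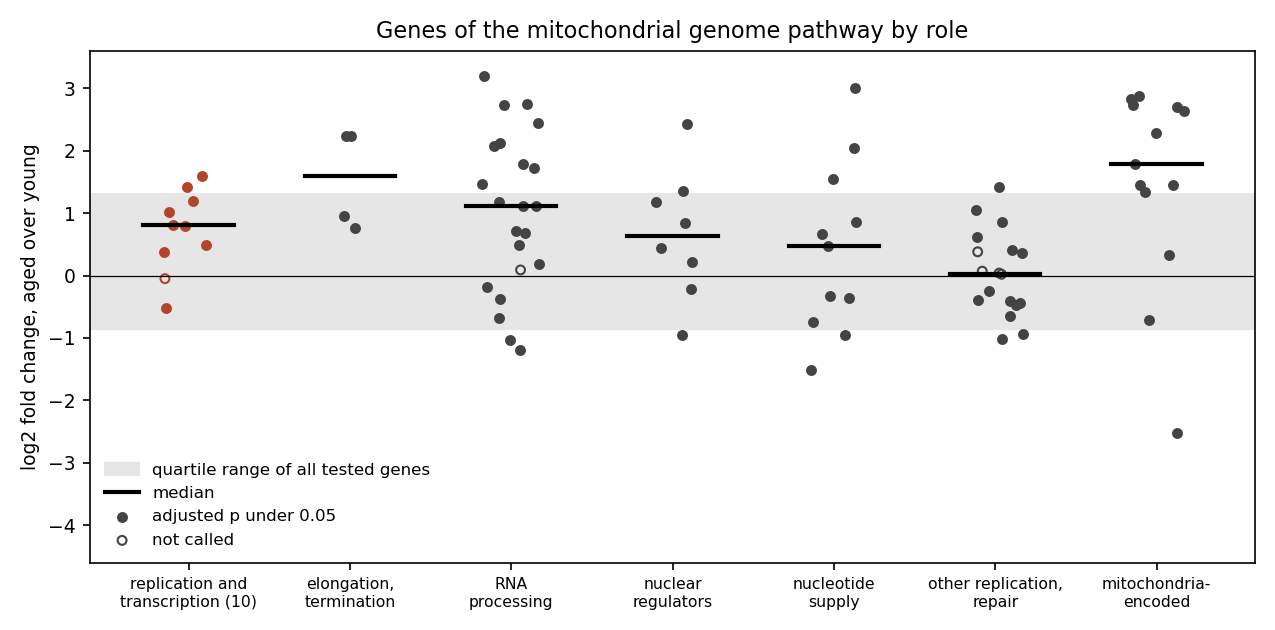
Log2 fold change, aged over young, of every tested gene of the pathway by role, with the list median as a bar and the quartile range of all tested genes in grey; open circles were not called. The 10 replication and transcription genes lie between -0.52 and 1.59, the RNA processing genes between -1.19 and 3.19 and the mitochondria-encoded genes between -2.52 and 2.87.

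The transcripts of the mitochondrial genome itself took 4.33% ± 0.113 of all counts in aged and 1.18% ± 0.157 in young libraries (SD, n = 3 each), a ratio of 3.66. These are shares of raw totals, without TMM factors, and so give a larger ratio than TMM scaling does. With TMM scaling the same 13 genes summed to 37900 to 39600 CPM in aged and 12100 to 15300 CPM in young libraries. Summed mitochondria-encoded counts per Polrmt count were 1920, 1800 and 1940 in aged libraries, against 991, 1420 and 1010 in young ones, higher in every aged library than in any young one (0.74 on the log2 scale, exact p = 0.1, adjusted 0.125). Young replicate 2 was the highest of the young libraries here too, with 1.36% mitochondria-encoded counts, and the difference was 0.91 without it. Of the 13 mitochondria-encoded protein genes, 11 rose and 2, ND6 and ND3, fell. Over all tested genes 44.7% were called higher and 41.8% lower. ND6, which lies on the opposite strand to the others, had 9.67 ± 0.456 CPM in aged and 55.3 ± 3.14 CPM in young cells. ND3 had 467 ± 10.7 CPM in aged and 767 ± 76.1 CPM in young cells. ND4L, a complex I subunit, had the largest rise, with 408 ± 15.4 CPM in aged and 56 ± 3.42 CPM in young cells. CYTB had the smallest rise, 1.25-fold. Polyadenylated RNA was sequenced, so these levels also depend on the tails of mitochondrial transcripts, and the amount of mitochondrial DNA was not measured here.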

How the data were processed

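The deposited file is a single table of raw counts, 1 row per gene symbol and 1 column per library, which the authors left without normalization. TRIzol extraction was followed by VAHTS Universal V6 library preparation, per the labels' protocols. Per the submitters' processing notes, fastp, HISAT2 and HTSeq were used, with versions, genome build, annotation and strand setting not given in the sources used here. Of 21026 symbols, 19087 matched a RefSeq symbol of GRCr8.

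Genes were kept by filterByExpr (minimum count of 10), scaled by TMM and tested with edgeR 4.0.16 in R 4.3.3 by the quasi-likelihood test, and group was the sole term in the model. P-values were adjusted over 14273 genes. The standard error is the fitted change over the square root of F. DESeq2 1.42.0, limma-voom (limma 3.58.1), other scalings, no filter, a replicate block and leaving out each library were alternatives.

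The members and lists were chosen with earlier results of these data known. All 10 members are named. In each other list the called gene with the smallest p and the largest rise and fall are named, with the 3 genes nearest Tfam in profile, and others are examples chosen after their values were seen.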

Additional observations from a re-analysis of the deposited data

How the results depend on the processing

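Of 120 recomputed log2 changes of the 10 genes, 113 kept their direction and their side of the threshold. The exceptions were Top1mt, Ssbp1 and Polg2. Scaling by library size alone gave Top1mt -0.19 (no longer called) and Ssbp1 0.29, and left 0 members lower. Under it the other lists had 10 higher and 3 lower among replication and repair genes, 3 lower for nucleotide supply, 3 lower for RNA processing and 1 lower for nuclear regulators. That scaling raised all changes by a median of 0.34, and 62.3% of called genes were then higher, against 51.7% with TMM. Leaving out 1 library at a time, Polg2 ran from 0.38 to 0.62 and lost its call in 4 of 6 fits, and Ssbp1 ran from -0.12 to 0.01. All 70 recomputed ratios kept their direction. The labels do not say whether replicate numbers pair the libraries. Deviations of same-numbered libraries over all tested genes correlated at -0.01, 0.00 and 0.01, and those of the other pairs at -0.01 to 0.01. This shows no pairing across the genes as a whole, but cannot exclude one that acts on few genes. With the replicate number as a block, 85.2% of genes were called and the same 9 members, Polg2 with an edgeR adjusted p of 0.049. Polg2 had the fewest counts of the 10 genes and the largest standard error, 0.20.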
